A study of Mus musculus with 28 samples.

Results

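Transcripts of 5 genes through which neutrophils sense chemical attractants and make oxidants were followed in scaffold implants of tumor-bearing and healthy mice. They were the rows of the deposited normalized table with the symbols Fpr1, Il8ra, Il8rb, Ltb4r1 and Ncf1, 5 of the 584 genes and 5 of the 648 assays of the panel, 1 assay per gene. Microporous polycaprolactone scaffolds, which fill with host immune, stromal and epithelial cells, had been placed in female BALB/c mice. The implants were recovered from 14 mice inoculated with 4T1-luc2-tdTomato cells, a BALB/c mammary carcinoma line with luciferase and red fluorescent reporters, and from 14 tumor-free mice. There were 3 tumor-bearing and 3 healthy mice at day 7, 8 and 8 at day 14, and 3 and 3 at day 21 after inoculation, with 1 implant per mouse. All mice of both conditions carried a scaffold, the labels give no age, and they list the tumor line for healthy mice too, so the condition at the time of analysis formed the groups. Each implant was measured as bulk RNA by TaqMan RT-qPCR on OpenArray panels.

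Neutrophils find sites of injury through G protein-coupled receptors that bind peptides, chemokines and lipids. Formyl peptides from bacteria and damaged mitochondria act on FPR1, CXC chemokines on CXCR2 and CXCR1, and leukotriene B4 on the receptor encoded by Ltb4r1. The same stimuli prime the phagocyte NADPH oxidase, and NCF1 (p47phox) is the cytosolic subunit that organises its assembly at the membrane. These genes are best known from neutrophils, but monocytes, macrophages and other leukocytes transcribe several of them, and 4T1 tumors are known for raising granulocyte numbers in their hosts.

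The values are log2 relative quantities, that is minus the difference in quantification cycle (Cq) between an assay and the mean of 5 reference assays in the same sample, so that 1 unit is a doubling of the template. Levels are compared between groups for the same assay and not between assays, which differ in amplicon and efficiency. Only the sums of marker assays given below combine assays. The Fpr1 assay (Mm00442803_s1) has an amplicon of 100 bases for a gene on chromosome 17. Il8rb, now named Cxcr2 (Mm00438258_m1, 67 bases), and Il8ra, now named Cxcr1 (Mm00731329_s1, 98 bases), both lie on chromosome 1, with 0 protein-coding genes starting between them in RefSeq. Ltb4r1 (Mm00521839_m1, 76 bases) lies on chromosome 14 and Ncf1 (Mm00447921_m1, 113 bases) on chromosome 5. By the maker's naming, the assays ending in s1, those of Fpr1 and Il8ra, lie within a single exon and do not tell cDNA from genomic DNA. RNA was treated with DNase I per the labels, and residual DNA was not tested here. Raw Cq of the 5 assays ran from 17.805 to 25.706, and 3 of 140 reactions gave no Cq.

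The sequences just before the starts of Fpr1, Cxcr2 and Cxcr1 are shown because the transcripts of the first pair varied together in these implants and that of their relative Cxcr1 did not. They are the 250 bases upstream of the RefSeq start in GRCm38.p6, at chr17:17883940-17884189 (minus strand) for Fpr1, chr1:74153744-74153993 (plus strand) for Cxcr2 and chr1:74194632-74194881 (minus strand) for Cxcr1. Each is written 5′ to 3′ in the direction of transcription, and capitals mark matches on either strand to GAGGAA, the core bound by the myeloid factor PU.1, or to TTNNGNAA, a form of the C/EBP motif.
Fpr1: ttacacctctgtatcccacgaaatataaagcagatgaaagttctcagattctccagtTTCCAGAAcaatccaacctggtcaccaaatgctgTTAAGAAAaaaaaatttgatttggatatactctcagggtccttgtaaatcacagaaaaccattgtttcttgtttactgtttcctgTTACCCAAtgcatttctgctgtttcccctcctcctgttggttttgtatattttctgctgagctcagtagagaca
Cxcr2: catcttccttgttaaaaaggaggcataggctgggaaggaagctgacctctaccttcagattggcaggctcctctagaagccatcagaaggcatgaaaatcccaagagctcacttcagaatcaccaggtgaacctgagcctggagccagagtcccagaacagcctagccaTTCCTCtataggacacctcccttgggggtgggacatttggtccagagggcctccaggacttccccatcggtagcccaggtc
Cxcr1: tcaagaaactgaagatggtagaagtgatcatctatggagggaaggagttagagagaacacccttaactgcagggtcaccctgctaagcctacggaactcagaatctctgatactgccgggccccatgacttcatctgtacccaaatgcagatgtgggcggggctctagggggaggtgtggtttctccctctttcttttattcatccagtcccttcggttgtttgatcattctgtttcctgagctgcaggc
Fpr1 held the C/EBP letters with first bases at -193, -159 and -74 from the start and no GAGGAA. Cxcr2 held GAGGAA on its lower strand, with the first base at -81, and no C/EBP letters. Cxcr1 held neither. The window of Ltb4r1, whose transcript correlated with that of Il8rb at only 0.16, also held GAGGAA, with the first base at -129, and that of Ncf1 held neither, so the matches did not sort the genes by how they varied together. Of 27025 mouse promoter windows of this length, 23.1% held GAGGAA and 36.9% held TTNNGNAA, so these matches are common and describe the letters only.

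Fpr1 transcripts were higher in tumor-bearing implants at day 14. Their log2 relative quantity ran from -4.54 through a median of -3.75 to -2.87 in the 8 tumor-bearing mice, against -6.26, -4.97 and -3.69 as the lowest, median and highest of the 8 healthy mice. The conditions overlapped through tumor-bearing replicate 17 at -4.54 and healthy replicate 10 at -3.69: 3 of 8 tumor-bearing mice lay above all healthy mice, and 7 of 8 healthy mice lay below all tumor-bearing mice. Fpr1 averaged -3.63 ± 0.53 in tumor-bearing and -5.03 ± 0.74 in healthy implants (SD, n = 8 each). The difference was 1.40 ± 0.30 (SE), a fold of 2.64 with a 95% interval of 1.72 to 4.05, and passed the threshold in limma's moderated test across all assays (adjusted p = 0.00924). In bulk tissue, more cells that carry a transcript and more transcript per cell cannot be told apart.

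At day 7 the Fpr1 values were -3.94, -3.30 and -3.52 in tumor-bearing mice, against -4.18, -3.56 and -4.99 in healthy mice. At day 21 they were -2.88, -3.60 and -3.05 in tumor-bearing mice, against -4.12, -4.14 and -3.29 in healthy mice. On both days the conditions overlapped by 1 mouse of each. The differences of 0.66 ± 0.47 at day 7 (adjusted p = 0.997) and 0.67 ± 0.47 at day 21 (adjusted p = 0.759) did not pass the test, with 95% intervals of -0.30 to 1.62 and -0.29 to 1.63. Ordered by mean, the 3 tumor-bearing groups (days 21, 7 and 14) stood above the 3 healthy groups (days 21, 7 and 14), and all neighbours in this order had overlapping samples.

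Il8rb, which encodes CXCR2, the receptor through which CXC chemokines draw neutrophils out of bone marrow and into tissue, showed a difference of like size at day 14. Its level ran from -4.36 through a median of -3.50 to -3.13 in 8 tumor-bearing mice, against -5.66, -4.99 and -4.04 in the 7 healthy mice with a value. Of the tumor-bearing mice, 7 of 8 lay above every healthy mouse, and the exception was again replicate 17. Means were -3.57 ± 0.40 (SD, n = 8) in tumor-bearing and -4.95 ± 0.68 (SD, n = 7) in healthy implants. The transcript was higher in tumor-bearing mice by 1.39 ± 0.26, a fold of 2.62 with a 95% interval of 1.80 to 3.83 (limma, adjusted p = 0.00347).

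On the other days Il8rb values overlapped between conditions. They were -3.78, -3.98 and -3.74 in tumor-bearing mice at day 7, against -4.36, -3.37 and -4.70 in healthy mice. At day 21 they were -2.81, -3.58 and -2.96 in tumor-bearing mice, against -3.83, -3.95 and -3.37 in healthy mice. At day 7 a healthy mouse (replicate 2) had the highest value, and at day 21 healthy replicates 23 and 24 lay below all 3 tumor-bearing mice. The differences were 0.31 ± 0.39 at day 7 (adjusted p = 0.997) and 0.60 ± 0.39 at day 21 (adjusted p = 0.728). By mean, tumor-bearing mice at day 21 stood highest and healthy mice at day 14 lowest, and neighbours in the order again had overlapping samples.

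**Figure D1:**
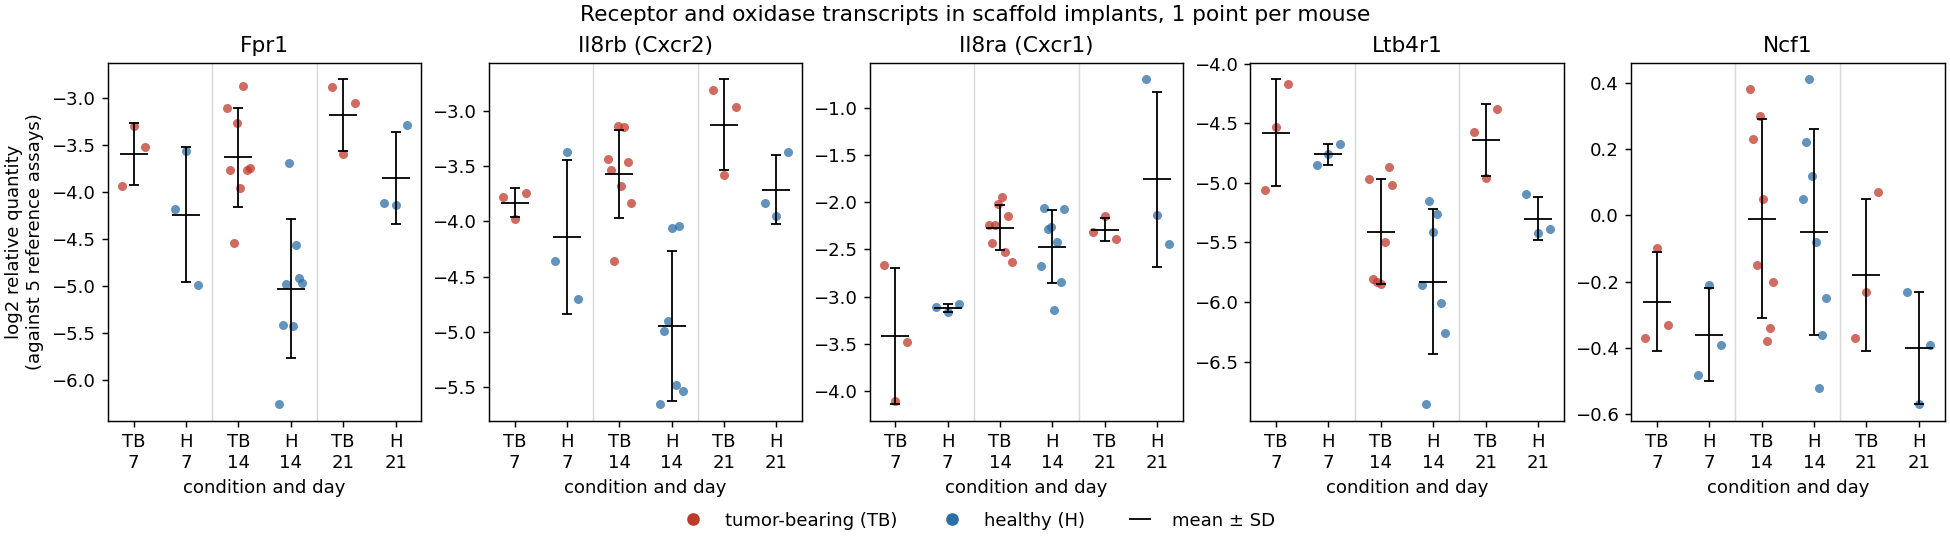
Log2 relative quantity of the 5 transcripts in each implant, with tumor-bearing (TB, red) left of healthy (H, blue) at days 7, 14 and 21. Each point is a mouse and bars show mean ± SD. At day 14, 7 of 8 healthy mice for Fpr1 and 5 of 7 for Il8rb lay below every tumor-bearing mouse. The counts were 4 of 7 for Ltb4r1, 3 of 8 for Il8ra and 1 of 8 for Ncf1.

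Fpr1 and Il8rb were the only called genes among the 5 at day 14, in a contrast where 14 of 588 assays (2.38%) passed the threshold in either direction and 10 (1.7%) were higher in tumor-bearing mice. They took places 6 and 4 of the 588 by p-value, and the median difference over all assays was -0.08. In the authors' deposited table the day 14 fold change was 2.64 for Fpr1 and 2.61 for Il8rb. A two-sided exact permutation test of the day 14 group means gave p = 0.00155 for Fpr1 and 0.000777 for Il8rb. With that test both missed the threshold after adjustment over all assays (adjusted p = 0.103 for each by the exact permutation test). Leaving out each day 14 mouse in turn kept both calls, with differences from 1.24 to 1.58 for Fpr1 and from 1.28 to 1.55 for Il8rb.

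The OpenArray panel, the physical plate named in the labels, could be set against this result. Of 7 panels, called A to G here, 5 held both conditions, D held 4 healthy and G held 4 tumor-bearing day 14 samples. Without panels D and G the day 14 difference was 1.38 for Fpr1 (adjusted p = 0.0262) and 1.49 for Il8rb (adjusted p = 0.0417). Between D and G alone it was 1.42 and 1.29, where plate and condition cannot be told apart. With the panel as a fixed block, Il8rb was called (1.50, adjusted p = 0.0405) and Fpr1 was not (1.38, adjusted p = 0.163).

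Where a panel held both conditions of a day, the samples formed 10 pairs, 3 at day 7, 4 at day 14 and 3 at day 21. Fpr1 was higher in the tumor-bearing sample of 10 of 10 pairs, by 0.24 to 1.69 log2 units, with 1.15 to 1.69 at day 14. Il8rb was higher in 8 of the 9 pairs with both values, by 0.90 to 1.80 at day 14, and its exception was a day 7 pair at -0.61. Ltb4r1 was higher in 7 of 9 pairs (-0.24 to 1.24) and Ncf1 in 9 of 10, though by no more than 0.47. Il8ra was higher in 4 of 10 pairs and its pair differences spread from -1.62 to 1.19. Sharing a panel does not make the mice related, so these pairs show the panel and no matched animals.

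**Figure D2:**
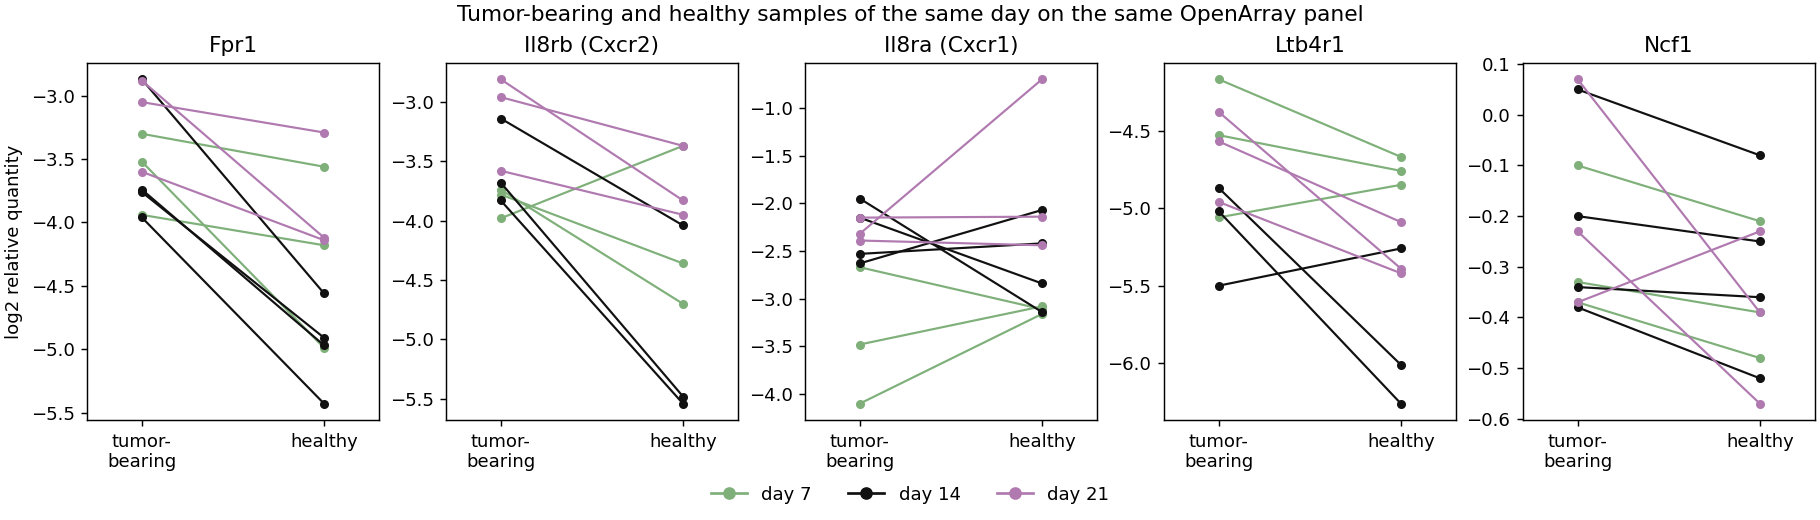
Log2 relative quantity in the tumor-bearing (left) and healthy (right) sample of each pair of the same day and the same OpenArray panel, with lines joining a pair and colours giving the day. All 10 Fpr1 lines fall toward the healthy side, 8 of 9 Il8rb lines do, and Il8ra lines run both ways.

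Averaged over the 3 days, Fpr1 was 0.91 ± 0.24 higher in tumor-bearing mice (adjusted p = 0.0436) and Il8rb 0.77 ± 0.21 higher (adjusted p = 0.0455). In this contrast 14 of 559 assays (2.5%) passed in either direction and 10 (1.79%) were higher. Both calls lay close to the threshold. Leaving out each of the 28 mice in turn, Fpr1 kept its call in 10 of 28 refits and Il8rb in 7 of 28, with differences from 0.78 to 1.02 and from 0.67 to 0.89. At day 7 no assay of 565 was called (0%; limma, with 12 at an unadjusted p under 0.05), and at day 21 the 7 called of 573 (1.22%) held none of the 5 genes. On neither of these days did any of the 5 have an unadjusted p under 0.05.

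The day 14 difference was not shown to exceed that of the other days. The effect at day 14 minus that at day 7 was 1.08 ± 0.47 for Il8rb (unadjusted p = 0.032, adjusted p = 0.992) and 0.74 ± 0.55 for Fpr1 (adjusted p = 0.992). The effect at day 21 minus that at day 14 was -0.79 ± 0.47 for Il8rb (adjusted p = 0.745) and -0.73 ± 0.55 for Fpr1 (adjusted p = 0.883). In limma none of 564 (0%), 571 (0%) and 560 (0%) assays was called for day 14 minus day 7, day 21 minus day 14 and day 21 minus day 7, with 21, 31 and 22 at an unadjusted p under 0.05.

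**Figure D3:**
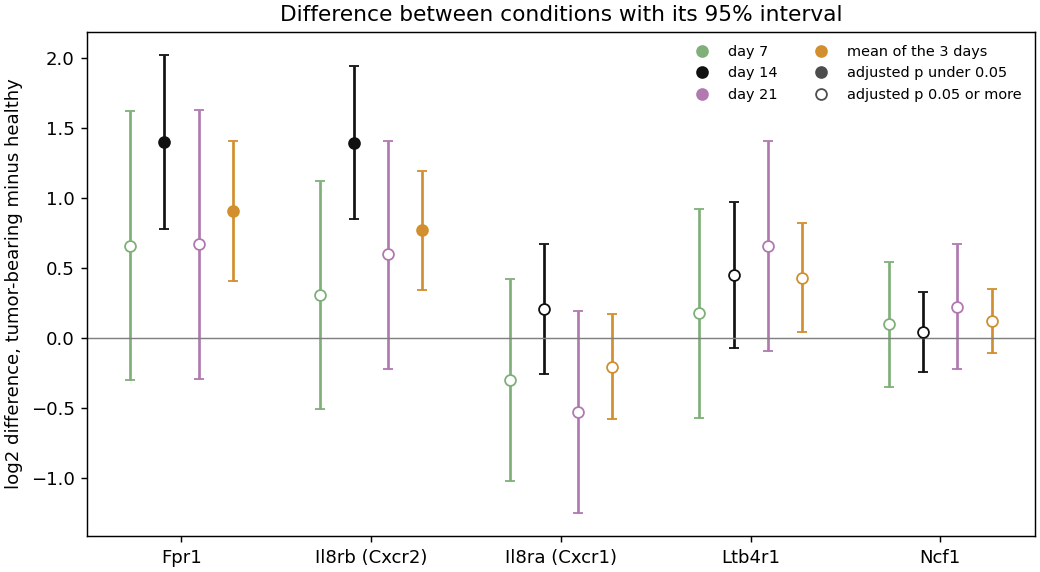
Log2 difference, tumor-bearing minus healthy, with its 95% interval from the limma model for each gene at days 7, 14 and 21 and for the mean of the days. Filled points had an adjusted p under 0.05 and open points did not. Only Fpr1 and Il8rb have filled points, at day 14 and for the mean of the days, and the intervals of different days overlap.

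Il8ra encodes CXCR1, the other receptor of this chemokine group and the neighbour of Il8rb on chromosome 1. It did not pass the test on any day. At day 14 it ran from -2.63 through a median of -2.24 to -1.95 in tumor-bearing mice, against -3.14, -2.35 and -2.06 in healthy mice. The difference was 0.21 ± 0.22 (adjusted p = 0.761), and its 95% interval of -0.26 to 0.67 ends below the estimates for Fpr1 and Il8rb, although the difference between genes was not tested.

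At day 7 Il8ra stood at -2.67, -4.10 and -3.48 in tumor-bearing mice, against -3.11, -3.16 and -3.08 in healthy mice. At day 21 it stood at -2.32, -2.15 and -2.39 in tumor-bearing mice, against -0.70, -2.14 and -2.44 in healthy mice. The differences were -0.30 ± 0.35 at day 7 (adjusted p = 0.997) and -0.53 ± 0.35 at day 21 (adjusted p = 0.728), and -0.21 ± 0.18 over the days (adjusted p = 0.766). Healthy replicate 23, at -0.70, set the day 21 value: without it the difference was 0.01. By mean, both day 7 groups of this gene were lowest, and neighbouring groups overlapped.

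Ltb4r1 encodes BLT1, the high-affinity receptor of leukotriene B4, a lipid that neutrophils release to recruit more of their kind. At day 14 it ran from -5.85 through -5.50 to -4.87 in the 7 tumor-bearing mice with a value, against -6.86, -5.86 and -5.15 in the 7 healthy mice with a value. The difference of 0.45 ± 0.25 (adjusted p = 0.55) did not pass the test, nor did that of 0.18 ± 0.36 at day 7 (adjusted p = 0.997). Day 7 values were -5.06, -4.53 and -4.17 in tumor-bearing mice, against -4.85, -4.76 and -4.67 in healthy mice, which lay inside the tumor-bearing range.

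Day 21 was the only day on which any of the 5 genes separated the conditions completely. Ltb4r1 was at -4.57, -4.96 and -4.38 in tumor-bearing mice, against -5.09, -5.42 and -5.39 in healthy mice. Of 498 assays measured in all 6 mice of that day, 81 (16.3%) had conditions that did not overlap. At day 7 it was 41 of 520 (7.88%), so such a separation was common with 3 mice a group. At day 14, with 8 mice a group, it was 0 of the 355 assays measured in all mice of the day. The day 21 difference of Ltb4r1 was 0.66 ± 0.36 (adjusted p = 0.677). Over the 3 days Ltb4r1 differed by 0.43 ± 0.19, with an unadjusted p of 0.0334 that did not hold after adjustment (adjusted p = 0.445).

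Of the 5 genes, Ncf1 had the smallest difference between conditions on each day. At day 14 it ran from -0.38 through -0.05 to 0.38 in tumor-bearing mice, against -0.52, -0.01 and 0.41 in healthy mice, almost the same span. At day 7 its values were -0.37, -0.10 and -0.33 in tumor-bearing mice, against -0.48, -0.21 and -0.39 in healthy mice. At day 21 they were -0.37, -0.23 and 0.07 in tumor-bearing mice, against -0.23, -0.57 and -0.39 in healthy mice. The differences were 0.10 ± 0.22 at day 7 (adjusted p = 0.997), 0.04 ± 0.14 at day 14 (adjusted p = 0.945), 0.22 ± 0.22 at day 21 (adjusted p = 0.923) and 0.12 ± 0.11 over the days (adjusted p = 0.814). The day 14 interval, -0.24 to 0.33 on the log2 scale, corresponds to folds of 0.844 to 1.25.

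Within healthy mice, none of the 5 genes passed the threshold between days. From day 7 to day 14, Fpr1 differed by -0.76 ± 0.40 (adjusted p = 0.431), Il8rb by -0.79 ± 0.34 (adjusted p = 0.365), Ltb4r1 by -1.05 ± 0.31 (adjusted p = 0.222) and Il8ra by 0.61 ± 0.30 (adjusted p = 0.381). From day 14 to day 21 the values were 1.19 ± 0.40 for Fpr1 (adjusted p = 0.131), 1.26 ± 0.34 for Il8rb (adjusted p = 0.0925), 0.52 ± 0.31 for Ltb4r1 (adjusted p = 0.425) and 0.73 ± 0.30 for Il8ra (adjusted p = 0.203). Il8ra at day 21 minus day 7 was 1.34 ± 0.36 (adjusted p = 0.208). Limma called 0 of 572 assays (0%, 74 at an unadjusted p under 0.05) at day 14 minus day 7, 2 of 578 (0.346%) at day 21 minus day 14 and 0 of 570 (0%, 57 unadjusted) at day 21 minus day 7. The day 21 minus day 14 comparison turned on a healthy day 14 mouse: without replicate 10, which had the highest Fpr1 value of its group, Fpr1 (1.36, adjusted p = 0.0474) and Il8rb (1.40, adjusted p = 0.0362) both passed, and without replicate 12 Il8rb did (1.41, adjusted p = 0.0452).

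In tumor-bearing mice, too, none of the 5 genes passed. Day 14 minus day 7 was -0.02 ± 0.40 for Fpr1 (adjusted p = 0.999) and 0.29 ± 0.34 for Il8rb (adjusted p = 0.854), and day 21 minus day 14 was 0.46 ± 0.40 (adjusted p = 0.703) and 0.47 ± 0.34 (adjusted p = 0.641). The healthy and tumor-bearing time courses are separate mice, but both share their day 14 samples with the day 14 comparison above. Ltb4r1 was at -0.78 ± 0.31 for day 14 minus day 7 (adjusted p = 0.407) and 0.73 ± 0.31 for day 21 minus day 14 (adjusted p = 0.38), a dip at day 14 in the means of both conditions. Il8ra was 1.12 ± 0.30 higher at day 14 than at day 7 (adjusted p = 0.113) and 1.11 ± 0.36 higher at day 21 than at day 7 (adjusted p = 0.22). Without tumor-bearing replicate 4 the day 14 minus day 7 value of Il8ra was 1.49 (adjusted p = 0.0343). Limma called 1 of 571 assays (0.175%), 0 of 583 (0%, 60 at an unadjusted p under 0.05) and 3 of 567 (0.529%) for these 3 time contrasts.

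Fpr1 and Il8rb also varied together from mouse to mouse. After subtracting group means, their log2 values correlated at r = 0.85 (Spearman rho 0.82) over 27 mice, 0.82 within tumor-bearing and 0.86 within healthy mice, and 0.80 without the 2 mice farthest out in Fpr1. The other 9 pairs of the 5 genes gave r between -0.31 and 0.33, including 0.06 for Il8rb with Il8ra and 0.04 for Fpr1 with Ncf1. Within tumor-bearing mice alone these 9 reached 0.63 for Fpr1 with Ltb4r1 (0.15 within healthy mice) and -0.53 for Il8ra with Ltb4r1 (-0.17 within healthy mice). Values of a mouse share its RNA, its reference constant and its panel, so these coefficients are given as a description.

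**Figure D4:**
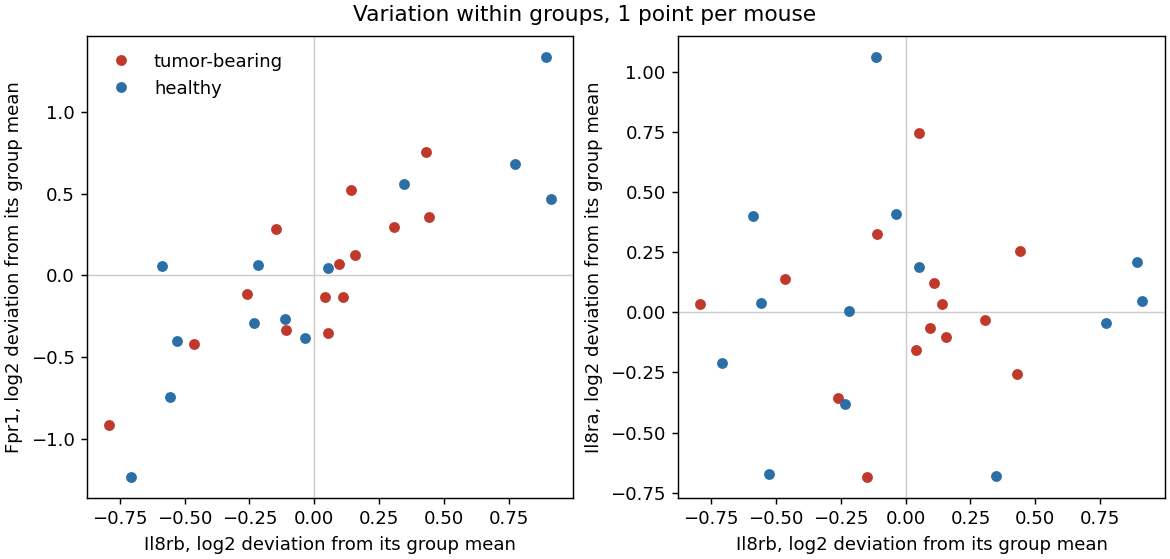
Log2 deviation of Fpr1 (left plot) and Il8ra (right plot) from their group means against that of Il8rb, 1 point per mouse, tumor-bearing in red and healthy in blue. Fpr1 follows Il8rb along a line in both conditions (r = 0.85, 27 mice), while Il8ra shows no such line (r = 0.06, 27 mice).

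Among the assays with a value in every implant, the 3 most like each gene were ranked by the correlation of deviations from group means. Il8rb was nearest Cxcl5 (r = 0.88, 27 mice), which encodes a chemokine that binds CXCR2, then Fpr1 and S100a9 (0.83), which encodes a calcium-binding protein abundant in neutrophils. Fpr1 was nearest the chemokine gene Ccl4 (0.82, 28 mice), Cxcl5 (0.81) and Il1b (0.77), the gene of interleukin-1 beta. Ncf1 was nearest Cd44 (0.76, 28 mice), an adhesion receptor, the kinase gene Jak3 (0.75) and the interferon gene Ifnk (0.74). Ltb4r1 was nearest Pgk1 (0.69, 26 mice), a glycolytic enzyme often used as a reference, Fgf23 (0.62) and Hmox1 (0.60), the heme oxygenase. Il8ra had no close match, its highest being the cytokine gene Osm (0.57, 28 mice), S100b (0.57) and Fam3c (0.55). The median coefficient over the 311 or 312 assays compared lay between -0.03 and 0.07. The group means held no panel term, and Ncf1 differed between panels at day 14. In healthy mice it ran from 0.05 to 0.41 on panel D and from -0.52 to -0.08 on the other panels. In tumor-bearing mice it ran from -0.15 to 0.38 on panel G and from -0.38 to 0.05 on the others. The part of the panel in these coefficients was not tested.

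None of the assays listed here as ligands of these receptors passed the test between conditions. Of the CXCR1 and CXCR2 ligands, 0 of 6 assays (Cxcl1 by 2 assays, Cxcl2, Cxcl3, Cxcl5 and Ppbp) passed in either direction at day 14, with a median difference of -0.16, and 0 of 6 at day 21, with a median of -0.53 against -0.00 for all assays. Cxcl5, which tracked Il8rb within groups, was at 0.35 ± 0.32 at day 14 (adjusted p = 0.702) and -0.62 ± 0.49 at day 21 (adjusted p = 0.859). Cxcl2, another neutrophil-attracting chemokine, was at -0.47 ± 0.42 and -1.86 ± 0.68 (adjusted p = 0.702 and 0.31). The smallest day 14 p-values of this list belonged to Ppbp, the platelet chemokine precursor, at -2.23 ± 1.25 (adjusted p = 0.55), and to 1 of the Cxcl1 assays at -0.30 ± 0.26 (adjusted p = 0.702). The Ppbp value rests on healthy replicate 13, which stood at 8.00 where the group medians were -4.75 in tumor-bearing and -4.72 in healthy mice, and without it the difference was -0.51 (adjusted p = 0.636). In limma 0 of these 6 assays had an unadjusted p under 0.05 at day 14 and 1 did at day 21.

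Genes that make leukotriene B4 likewise gave 0 of 9 assays past the threshold at each day, and 0 at an unadjusted p under 0.05. Alox5, the lipoxygenase that starts the pathway, was read by 6 assays whose day 14 differences ran from -0.78 to 0.02. The lowest rests on healthy replicate 14, at 2.36, and was 0.08 without it (adjusted p = 0.934). Alox5ap, its activating protein, was at 0.16 ± 0.13 (adjusted p = 0.7), and Lta4h, the hydrolase of the final step, at 0.08 ± 0.12 (adjusted p = 0.862). Other ligands of the receptor families (Anxa1, C3, Hc, Saa1 and Saa3) gave 0 of 5 past the threshold, with Anxa1, whose product acts on formyl peptide receptors, at 0.13 ± 0.08 (adjusted p = 0.647), and Saa3, an acute-phase protein gene, at 0.65 ± 0.52 (adjusted p = 0.68) at day 14.

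Other leukocyte chemoattractant receptors on the panel were C3ar1 (2 assays), Ccr1, Cmklr1, Cxcr4, Fpr3 and Ptafr, and 0 of 7 assays passed at day 14 (0 at an unadjusted p under 0.05), with a median difference of 0.16. C3ar1, the receptor of complement C3a, was at 0.28 ± 0.18 by the assay with the smaller p (adjusted p = 0.618; 0.08 without healthy replicate 13), and Ccr1, a CC chemokine receptor of myeloid cells, at 0.16 ± 0.16 (adjusted p = 0.727). At day 21, 0 of 6 passed, with 3 of 6 at an unadjusted p under 0.05, against 52 of 573 over all assays. These were the other C3ar1 assay (0.54 ± 0.22, adjusted p = 0.43), Cmklr1, the receptor of chemerin (-0.52 ± 0.23, adjusted p = 0.477), and Cxcr4. Cxcr4, which holds neutrophils in bone marrow, had the largest day 21 difference of this list, 5.74 ± 1.55 (adjusted p = 0.0739). It rests on 2 tumor-bearing values, -0.06 and 11.57, of which 11.57 lay far outside every other group.

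The remaining oxidase genes did not pass the test either. Cybb, which encodes the catalytic subunit gp91phox, was at 0.12 ± 0.13 at day 14 (adjusted p = 0.742), the GTPase gene Rac1 at -0.19 ± 0.16 (adjusted p = 0.687) and Nox4, a non-phagocyte oxidase, at -0.46 ± 0.32 (adjusted p = 0.65). The Nox4 value was -0.06 (adjusted p = 0.914) without healthy replicate 13, which stood at 0.24, above all other day 14 mice. On each day 0 of 4 oxidase assays passed, and 0 had an unadjusted p under 0.05. Growth factor genes of granulocytes and their receptors (Csf2, Csf2ra, Csf2rb and Csf3) gave 0 of 6 at day 14, and the 2 assays of Csf3, the gene of G-CSF, differed in sign (-0.90 ± 0.57 and 0.99 ± 0.61, adjusted p = 0.618 each). Leukocyte integrins and selectins gave 0 of 5, with Itgam, a subunit of the adhesion receptor Mac-1, at 0.09 ± 0.14 (adjusted p = 0.862) and Sele, E-selectin, at -0.38 ± 0.36 (adjusted p = 0.724).

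Neutrophil and granulocyte precursor markers differed in the same direction as Fpr1 and Il8rb at day 14. The marker list was chosen with earlier results of these data known. Over all assays, 10 of 588 (1.7%) were called higher on that day. Of the marker list, 8 of 8 tested assays were called higher in tumor-bearing mice, with a median difference of 2.22. They ran from Pglyrp1 (1.65 ± 0.25, adjusted p = 0.000408), a granule protein, to Camp (4.81 ± 0.73, adjusted p = 0.000408), the cathelicidin of secondary granules. Between them lay S100a9 at 2.12 ± 0.38 (adjusted p = 0.00212), S100a8 at 2.17 ± 0.50 (adjusted p = 0.017) and 1.85 ± 0.46 (adjusted p = 0.0285) by 2 assays, and lactoferrin, Ltf, at 2.28 ± 0.59 (adjusted p = 0.038). The primary granule protease genes Ela2, neutrophil elastase, and Prtn3, proteinase 3, were at 3.71 ± 0.76 (adjusted p = 0.00924) and 4.39 ± 0.80 (adjusted p = 0.00588). In healthy day 14 mice the median Cq was 28.6 for Camp, 29.9 for Ela2 and 29.2 for Prtn3. These values came from 7, 5 and 3 mice, and reactions without a Cq were left out. The other marker assays had lower median Cq in this group, for example 24.7 for Ltf and 20.6 for S100a9. At day 21, 5 of 9 were called higher (median over the list 3.24), namely Camp (6.59), Prtn3 (5.76), Ela2 (5.44), Ltf (4.10) and Itgb2l (3.24), and at day 7 it was 0 of 8. With each of the 16 day 14 mice left out in turn, Camp, Pglyrp1, S100a9, Ela2 and Prtn3 were called in 16 of 16 refits. Ltf was called in 8 of 16, with calls lost without tumor-bearing replicate 15, 20, 21 or 22 or healthy replicate 9, 10, 11 or 13. The S100a8 assays were called in 14 of 16 (lost without tumor-bearing replicate 22 or healthy replicate 11) and in 11 of 16 (lost without tumor-bearing replicate 20, 21 or 22 or healthy replicate 7 or 11). At day 21, with each of 6 mice left out, the Ltf call was lost without tumor-bearing replicate 28 or any healthy replicate and the Ela2 call without healthy replicate 23, and the Itgb2l call, which could be refitted in 4 of these 6 cases, without tumor-bearing replicate 26 or 27 or healthy replicate 24. By the exact permutation test no assay of the panel passed at day 14, so none of the day 14 marker calls held. With reactions without a Cq set to the largest Cq of the table, fewer than 8 of all assays passed at day 14, and none at day 21. Fewer than 8 also passed with day 14 samples alone. The day 14 differences of Fpr1 and Il8rb were smaller than those of all 8 marker assays, a gap that was not tested. For Camp, Ela2 and Prtn3 the size of the difference rests on late healthy reactions. Healthy day 14 median Cq was 23.6 for Fpr1 and 23.7 for Il8rb. At day 21 Fpr1 (0.67 ± 0.47, adjusted p = 0.759) and Il8rb (0.60 ± 0.39, adjusted p = 0.728) did not pass. The marker median was then 3.24 over 9 assays, against 2.22 over 8 at day 14, and this divergence was not tested. The day 21 median is the Itgb2l value, which rests on 2 healthy mice with a median Cq of 30.2.

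The summed relative quantity of the 9 neutrophil marker assays was 2.34 to 3.31 in tumor-bearing and 1.50 to 3.11 in healthy mice at day 7. At day 14 it was 1.14 to 9.82 in tumor-bearing and 0.408 to 2.09 in healthy mice, and at day 21 it was 7.93 to 14.7 in tumor-bearing and 2.90 to 4.62 in healthy mice. These sums are mostly S100a8 and S100a9, whose 3 assays made up 87.6% to 99.3% of the sum in the 28 implants, and a reaction without a Cq added 0. They add assays of unlike amplicon and efficiency, so they are not a measure of cell content. Prtn3 gave no Cq in 5 of 8 and Itgb2l in 7 of 8 healthy day 14 mice, and both gave a value in all 8 tumor-bearing mice of that day. The part of neutrophil content in the Fpr1 and Il8rb differences was not tested. Monocyte and macrophage markers (Ccr2, Cd14, Cd163, Cx3cr1 and Mrc1) gave 0 of 5 past the threshold at each day, with sums of 3.14 to 5.85 in tumor-bearing and 2.17 to 4.60 in healthy mice at day 14. T cell markers (Cd28 and Cd4) gave 0 of 2, mast cell and eosinophil markers 0 of 5 and housekeeping genes 0 of 19 at day 14, with 0, 2 and 1 assays at an unadjusted p under 0.05.

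**Figure D5:**
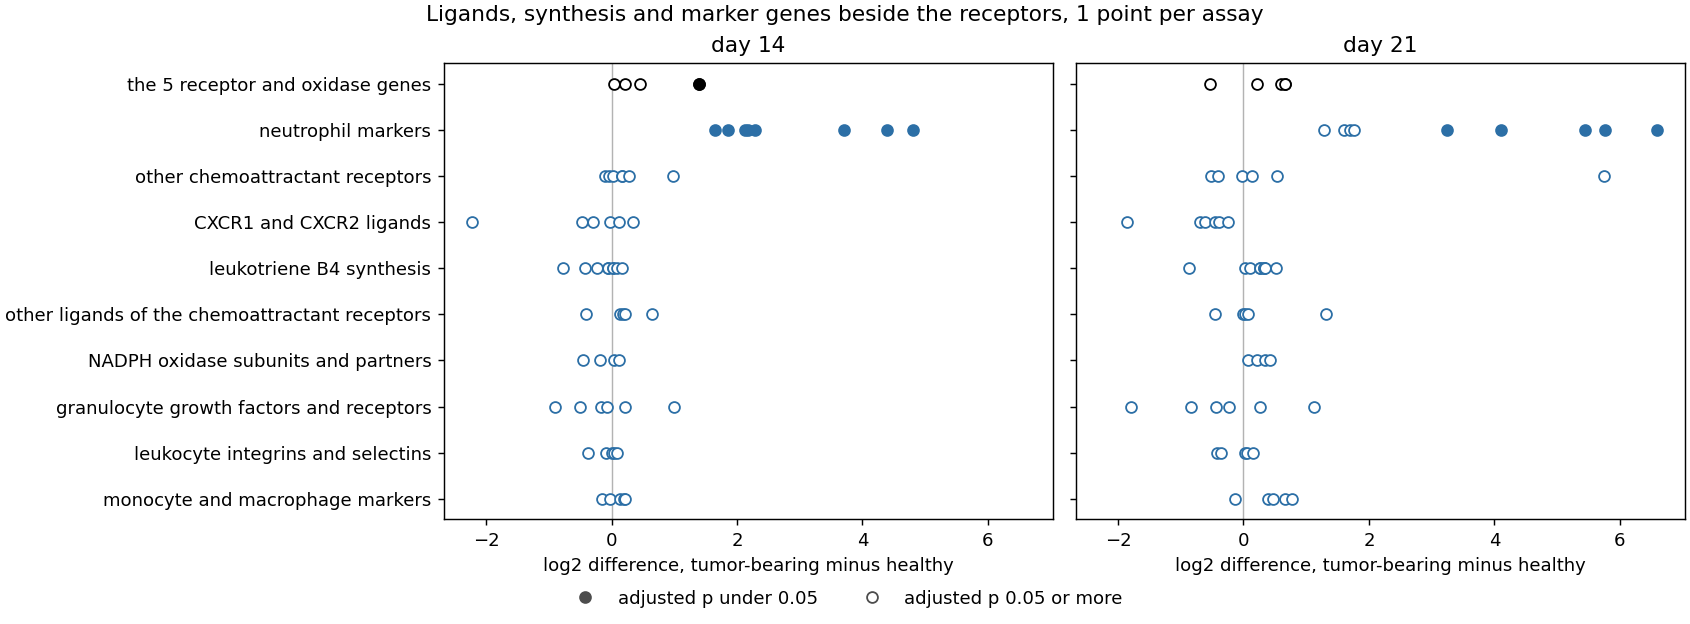
Log2 difference, tumor-bearing minus healthy, at day 14 (left plot) and day 21 (right plot) for the 5 receptor and oxidase genes (top row, black) and for gene lists of their ligands, partners and cell markers, 1 point per assay. Filled points had an adjusted p under 0.05. Filled points appear at day 14 for Fpr1 and Il8rb, which coincide near 1.40, and for all 8 neutrophil marker assays.

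Implants gave 475 to 587 assays with a value, and the fewest values came from healthy day 14 replicate 13 (475), tumor-bearing day 14 replicate 21 (489) and healthy day 14 replicate 14 (535). Replicate 13 lacked Il8rb and Ltb4r1, and replicate 21 lacked Ltb4r1. Without these 3 mice the day 14 differences were 1.45 for Fpr1 (adjusted p = 0.0273) and 1.27 for Il8rb (adjusted p = 0.0203). Setting reactions without a Cq to the largest Cq of the table ended the Il8rb call (3.87, adjusted p = 0.557), since replicate 13 then took a value far below its group.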

How the data were processed

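Per the labels' protocols, frozen implants were homogenized, total RNA was isolated with DNase I treatment then reverse transcribed. TaqMan OpenArray inflammation panels were read on a QuantStudio 12K Flex. Which software called the cycles is not given in the sources used here. The authors deposited raw Cq values per the file headers, treated here as a score on a cycle scale. The normalized values the authors deposited are a ratio on a linear scale. Set against the raw Cq, each sample's constant equalled the mean Cq of 5 of the 16 reference assays within 3.0e-05 cycles; which assays these are is not reported here. The authors' deposited fold-change table was set beside the estimates only, and its folds equal those of plain group means.

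Tests used the log2 of the deposited ratios. Linear models were fitted by lmFit and eBayes of limma 3.58.1 (R 4.3.3), with 6 group means over 28 samples and the panel as a random block (duplicateCorrelation, statmod 1.5.0, correlation 0.054). Missing Cq stayed missing. Assays were fitted where 50% of at least 1 group had a value (609 assays) and tested where both or all groups compared held 2 values or more. Adjustment was by Benjamini-Hochberg over all assays of a contrast, with an adjusted p under 0.05 as the threshold, and a gene's adjusted p is limma's wherever no other test is stated. The exact permutation test went through every relabeling of the day 14 mice. Scipy 1.17.1 adjusted its p-values and checked the result on the Fpr1 assay. The labels give 1 implant per mouse and replicate numbers that no groups share. The SE comes from the spread between mice, and no count of molecules was used. The script was tested on simulated data.

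The genes and gene lists were chosen with earlier results of these data known. Named genes are the 5 members, list genes past the threshold in a tumor-bearing minus healthy contrast, the 2 smallest day 14 p-values of each list, and the 3 assays most like each member. Cybb, Cxcl2, Cxcl5 (as a ligand), Cxcr4, Alox5ap and Lta4h were named after their values were seen. Symbols follow the table, with current RefSeq names beside them, and promoter sequences are RefSeq's (GRCm38.p6). Alternatives covered normalization, missing and late reactions, the panel, the samples fitted, the filter, the variance prior, the test and each mouse left out.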

Additional observations from a re-analysis of the deposited data

How the results depend on the processing

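The Fpr1 and Il8rb differences between tumor-bearing and healthy mice at day 14 and over the days were above 0 under every alternative run. At day 14, 2 of the 5 genes were called. The count was 1 with missing reactions at the largest Cq, with the panel as a fixed block, with day 14 samples alone (Fpr1 adjusted p = 0.055, Il8rb 0.033) and with only assays measured in all samples (which leaves Il8rb out). It was 0 in panels D and G alone (4 mice a condition; adjusted p = 0.598 and 0.391) and by the exact permutation test. Centring raw Cq on each sample's median gave 1.51 for Fpr1 and 1.50 for Il8rb. Over the days the count of 2 became 1 with only assays measured in all samples. It became 0 with housekeeping normalization, with missing reactions at the largest Cq, without a panel block, with a fixed block and, chosen after seeing the data, without the 3 samples with the fewest values. Leaving out each mouse gave 0 to 2. No groups share replicate numbers, so no fit could use them as a block, and the pairs of mice on one panel and the fixed panel block are given with the results.

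Of all assays, the day 14 count of 14 became 4 with missing reactions at the largest Cq, 0 in panels D and G alone, 6 with day 14 samples alone, 3 with assays measured in all samples and 0 by the exact permutation test, and ran from 8 to 15 with each mouse left out. The day 21 count of 7 became 0 with missing reactions at the largest Cq and 1 with assays measured in all samples, and ran from 1 to 7 with each mouse left out. Over the days, the count of 14 became 4 and 6 under those settings and ran from 8 to 15. Fewer assays are tested where all values are required. The cause of the other shifts was not tested.

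With each mouse left out, the count of the 5 genes ran from 0 to 2 for healthy day 21 minus day 14 and from 0 to 1 for tumor-bearing day 14 minus day 7. Uncalled values near 0 turned sign. Ncf1 at day 14 was -0.01 in panels D and G alone and -0.00 without the 3 samples, and ran from -0.03 to 0.10 with each mouse left out. Il8ra ran from -0.67 to 0.05 at day 7 and from -0.87 to 0.01 at day 21, and Ltb4r1 from -0.03 to 0.41 at day 7. Fpr1 in tumor-bearing mice, day 14 minus day 7, was 0.03 with housekeeping normalization, 0.00 with missing reactions at the largest Cq and 0.13 with a fixed block, and ran from -0.16 to 0.10.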
